A study of Mus musculus with 4 samples.

Results

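The clustered protocadherin genes were taken as the protein-coding genes of GENCODE release M21 on mouse chromosome 18 whose symbols start with Pcdha, Pcdhb or Pcdhg. There were 57 such entries among 21755 protein-coding genes on chromosomes 1 to 19 and X. They comprised 14 Pcdha, 22 Pcdhb and 21 Pcdhg genes, all on the forward strand. The 57 entries carried 56 distinct symbols, because 2 entries are both named Pcdha11 in this release. A start is the most upstream start of a gene's coding transcripts, which is the 5′ end of the variable exon except at Pcdhb6 and Pcdhb8, where a short first exon of another transcript begins slightly upstream. The region examined ran from 50 kb before the first gene to 50 kb after the last, chr18:36880184-37891873 of mm10, a length of 1010 kb.

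Clustered protocadherins are cell surface adhesion proteins that bind copies of themselves on neighbouring cells. They are best known from the nervous system, where different combinations give single neurons a surface identity. Each Pcdha and Pcdhg variable exon has its own promoter and is spliced to constant exons shared by its cluster, while Pcdhb genes have no constant exon. Promoter choice in neurons is known to involve the insulator protein CTCF and cohesin, which bring promoters close to enhancers lying after the Pcdha and Pcdhg constant exons. The C-type genes, Pcdhac1, Pcdhac2, Pcdhgc3, Pcdhgc4 and Pcdhgc5, lie next to the constant exons and are regulated differently from the others. None of these genes is a marker of blood cells.

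The samples were cells of mouse acute myeloid leukemia (AML) profiled by DNase-seq. AML is a cancer of immature myeloid blood cells. DNase-seq cuts accessible chromatin in nuclei with DNase I and sequences the cut ends. There were 4 libraries, 2 from each of 2 biological replicates, of strain C57BL/6J, and the labels call the cells in vitro differentiated. The labels name no treatment, genotype change or control, tie both biosamples to 1 donor record, and leave age and sex unknown, so these data describe a single model. The libraries of a biological replicate had been pooled by the authors before sites were called, so each replicate had 1 list of peaks and 1 list of hotspots. No value therefore carries an SD, and no test between groups could be made.

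Replicate 1 had 236754 distinct peaks and replicate 2 had 67559, so a missing replicate 2 peak has to be read against a shorter list. Sequencing depth is unknown. Each peak is 150 bp wide and has a whole-number score, of unknown scale, with a median of 74 in replicate 1 and of 35 in replicate 2. Scores are therefore compared only within a list, also as the percent of that list's peaks with a lower score. Over all coding starts, 66.7% had a replicate 1 peak within 1 kb and 54.0% a replicate 2 peak, and the marker counts below are to be read against these shares. Myeloid genes lay above them, with a peak within 1 kb of the start at 10 of 10 in replicate 1 and 8 of 10 in replicate 2. Among them was the transcription factor gene Spi1 (150 and 94). Of 10 neuronal genes, 5 had a replicate 1 peak and 4 a replicate 2 peak, led by the glutamate transporter gene Slc17a7 (118 and 45). The neuronal genes Syt1, Rbfox3, Stmn2, Gap43 and Dcx had none in either list. Of 6 glial genes, 3 had a replicate 1 peak and 1 a replicate 2 peak, Mbp. The 3 T cell genes had none, 2 of 3 B cell genes had a replicate 1 peak alone, 2 of 3 erythroid genes had a replicate 1 peak and 1 a replicate 2 peak, and 1 of 3 fibroblast genes had a peak in both lists, Col1a1.

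Few clustered protocadherin starts had a peak in both replicates. In replicate 1, 27 of the 57 starts (47.4%) had a peak within 1 kb, against 66.7% of all coding starts. In replicate 2, 6 starts (10.5%) had one, against 54.0% of all coding starts. All 6 lay among the 27, and at each of the 6 a replicate 1 peak and a replicate 2 peak overlapped by at least 1 bp, against 53.4% of all coding starts. The other 30 starts had no peak in either list. Hotspots, which are regions of variable width, lay at the same 27 starts in replicate 1 and at the same 6 in replicate 2. The shares over all coding starts were 67.2% and 54.3%.

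The clusters differed in how many starts had a peak, as the bar plot of shares shows. Pcdha had a replicate 1 peak at 4 of 14 starts (28.6%) and no replicate 2 peak. Pcdhb had replicate 1 peaks at 9 of 22 (40.9%) and a replicate 2 peak at 1 (4.55%). Pcdhg had replicate 1 peaks at 14 of 21 (66.7%), which is the share over all coding starts, and replicate 2 peaks at 5 (23.8%), which is below it. So 5 of the 6 starts found in both replicates belonged to the cluster that lies last on the chromosome. Within Pcdhg, the B subfamily had peaks at 5 of 6 starts in replicate 1 and at 3 in replicate 2, and the A subfamily at 7 of 12 and at 1. Of the 5 C-type genes, 4 had a replicate 1 peak and 1 a replicate 2 peak. These subfamilies are small, and the differences between them were not tested.

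**Figure D1:**
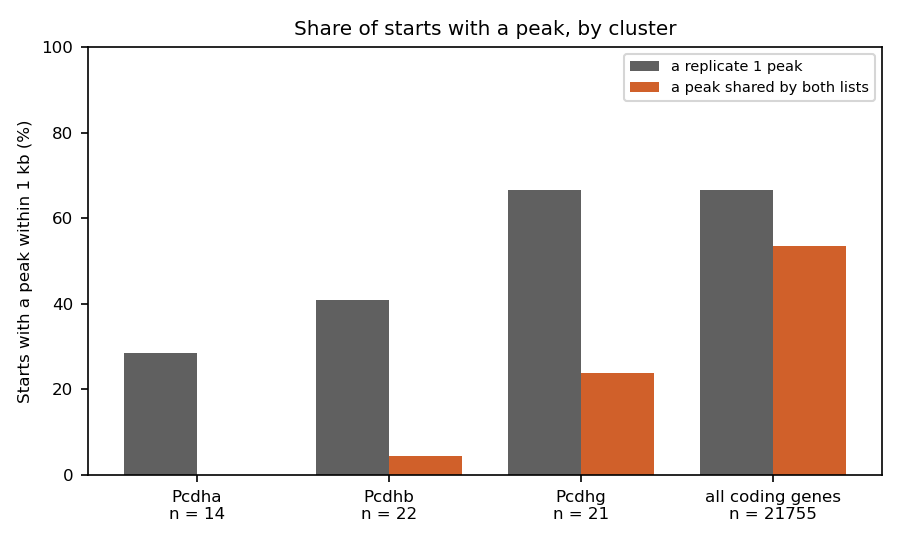
Bars give the percent of gene starts with a peak within 1 kb, for each cluster and for all coding genes, with replicate 1 peaks in grey and peaks shared by both lists in orange. The grey bar rises from 28.6% at Pcdha to 66.7% at Pcdhg, and the orange bar is 0 at Pcdha and 23.8% at Pcdhg against 53.4% over all coding genes.

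The peaks that were present were weak compared with those at other promoters. The median score of the highest peak at a start was 52 in replicate 1, with 22.3% of the list lower, against 142 over all coding starts with a peak, with 94.1% lower. In replicate 2 the medians were 23 and 76, with 21.6% and 89.8% of the list lower. Only 5 of the 57 starts had a replicate 1 peak above that list's median, against 58.1% of all coding starts. In replicate 2 there were 2 such starts, against 47.6%. Pcdha peaks scored from 29 to 36 in replicate 1, Pcdhb peaks from 28 to 79 with a median of 33, and Pcdhg peaks from 36 to 128 with a median of 59. All 4 Pcdha scores were therefore at or under the lowest Pcdhg score.

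**Figure D2:**
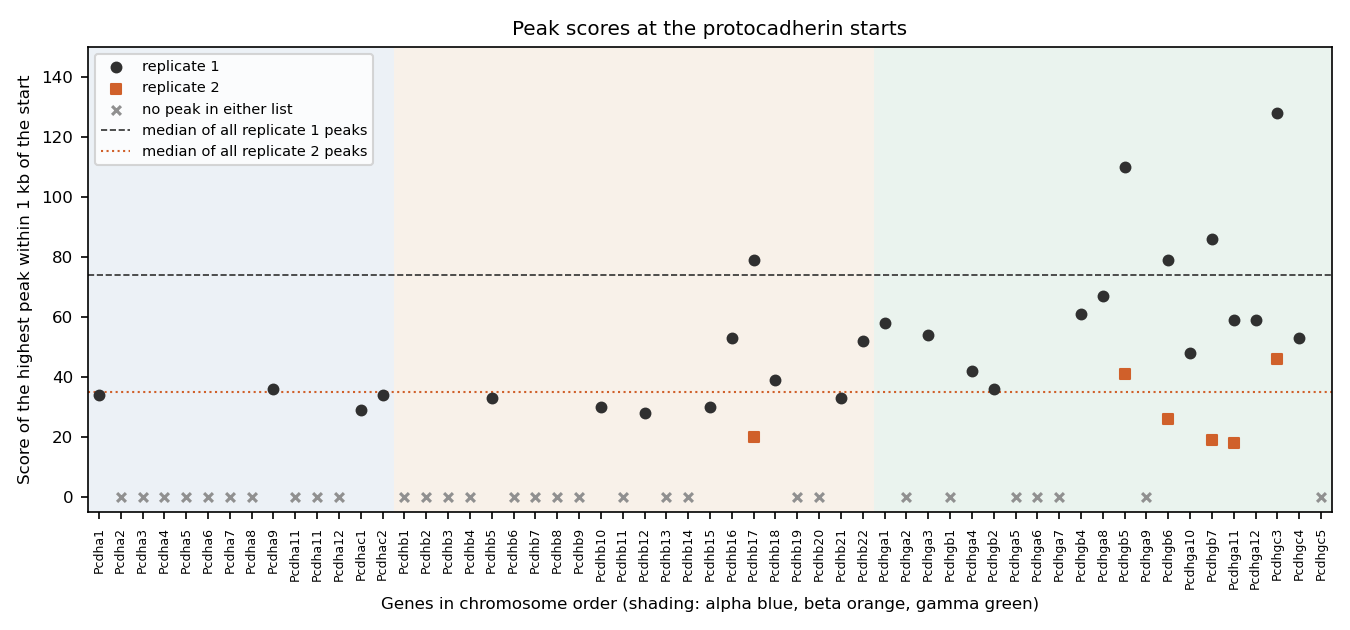
Each column is 1 gene in chromosome order, with the score of its highest replicate 1 peak (black dots), its highest replicate 2 peak (orange squares) or a cross at 0 where neither list had a peak. The dashed and dotted lines are the medians of all replicate 1 peaks (74) and of all replicate 2 peaks (35), and the highest points in both lists are Pcdhgb5 and Pcdhgc3.

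Pcdhgc3, a C-type gene that many cell types outside the nervous system also express, had the strongest start of the family in both lists. Its start is at chr18:37806410, and its highest peaks scored 128 in replicate 1 (chr18:37806236-37806385) and 46 in replicate 2 (chr18:37806276-37806425). Of the peaks in each list, 87.2% and 67.5% were lower. This start had further peaks downstream in both lists, of 89 in replicate 1 and 26 in replicate 2. The hotspot over it was 2309 bp wide in replicate 1 and 1426 bp in replicate 2, both at the deposited ceiling of 100 for the −log10 q value. Both hotspots reached into the variable exon, where the antisense transcript BC037039 starts at 37807922. The replicate 1 hotspot, ending at 37808236, covered that start, and the replicate 2 hotspot ended before it, at 37807381. A further pair of overlapping peaks in this exon scored 71 and 15. The other C-type genes of the cluster were weaker, with a replicate 1 peak of 53 at Pcdhgc4 and no peak at Pcdhgc5.

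Pcdhgb5 came next, with 110 in replicate 1 and 41 in replicate 2, in the same window (chr18:37730916-37731065) in both lists. This window is centred 19 bp before the start, and 77.2% and 60.3% of peaks in the lists were lower. Pcdhgb5 and Pcdhgc3 were the only clustered protocadherins above the list median in both replicates. Pcdhgb7 had 86 and 19, Pcdhgb6 had 79 and 26, and Pcdhga11 had 59 and 18. In replicate 2 the hotspots at these 3 starts had −log10 q values of 3.15, 2.90 and 2.31, against the ceiling of 100 at Pcdhgb5. The order of Pcdhgb6 and Pcdhgb7 thus differed between the lists, while the first and second places did not.

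Pcdhb17 was the only gene before the Pcdhg cluster with a peak in both lists. Its shared peak scored 78 in replicate 1 and 20 in replicate 2, where it is centred 135 bp after the start (chr18:37484856-37485005). A replicate 1 peak of 79 without a counterpart lay inside the exon, centred 935 bp after the start. The other Pcdhb genes with replicate 1 peaks were Pcdhb16 (53), Pcdhb22 (52), Pcdhb18 (39), Pcdhb5 and Pcdhb21 (33 each), Pcdhb10 and Pcdhb15 (30 each) and Pcdhb12 (28). The strongest of them lie near the Pcdhg end of the cluster. Pcdhb1, the first of the cluster, Pcdhb2 to Pcdhb4, Pcdhb6 to Pcdhb9, Pcdhb11, Pcdhb13, Pcdhb14, Pcdhb19 and Pcdhb20 had no peak.

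Among Pcdhg genes found in replicate 1 alone, Pcdhga8 had 67, Pcdhgb4 61, Pcdhga12 59, Pcdhga1 58, Pcdhga3 54, Pcdhga10 48, Pcdhga4 42 and Pcdhgb2 36. Pcdhga8 and Pcdhgb4 scored higher there than Pcdhga11, which had a replicate 2 peak where they had none, so strength in replicate 1 did not fully order presence in replicate 2. From Pcdhgb4 to Pcdhgc4, every gene but Pcdhga9 had a replicate 1 peak. Pcdhga2, Pcdhgb1, Pcdhga5, Pcdhga6, Pcdhga7, Pcdhga9 and Pcdhgc5 had none in either list. Pcdhgb8, annotated as a polymorphic pseudogene and so not counted among the 57, had a shared pair of peaks at its start of 89 and 20, close to the 86 and 19 of Pcdhgb7.

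In the Pcdha cluster the peaks were near the bottom of the list. Pcdha9 had a replicate 1 peak of 36 centred 70 bp before its start (chr18:36997736-36997885), with 3.53% of the list lower. Pcdha1 had 34 and Pcdhac2 had 34, both centred inside the variable exon, 686 and 787 bp after the start. Pcdhac1 had 3 peaks, the highest at 29. The hotspots at these 4 starts had −log10 q values of 1.63 to 2.40, so they were close to the authors' threshold of 1.3. Pcdha2 to Pcdha8, both Pcdha11 entries and Pcdha12 had no peak in either list. No peak lay in a Pcdha constant exon, while 2 replicate 1 peaks, of 52 and 61, lay in Pcdhg constant exons without a replicate 2 counterpart.

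Most peaks lay at the start itself and not elsewhere in the window, as the plot of distances shows. Of the 27 highest replicate 1 peaks, 20 (74.1%) were centred within 150 bp of the start, against 63.9% over all coding starts with a peak, and 17 were centred upstream. The median centre was 20 bp before the start, against 23.5 bp before it over all coding starts. In replicate 2 all 6 were within 150 bp, against 70.3% of coding starts. In Pcdhg 12 of 14 replicate 1 peaks were within that distance, and in Pcdha 1 of 4, so the few Pcdha peaks were also the least centred on a start.

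**Figure D3:**
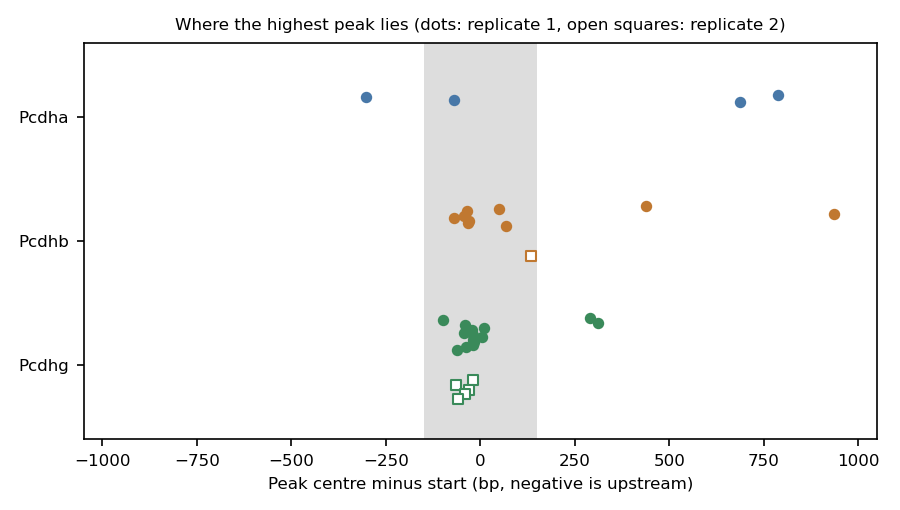
Points give the distance in bp from a gene's start to the centre of its highest peak, by cluster, with dots for replicate 1, open squares for replicate 2 and a vertical scatter that only separates points. The grey band is 150 bp on either side of the start, and it holds 20 of 27 dots and 6 of 6 squares.

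Starts with and without peaks were compared for CpG content and repeated sequence, which the choice of genes did not use. The observed over expected CpG ratio within 250 bp of the start had a median of 0.604 over the 27 starts with a replicate 1 peak and 0.501 over the 30 without. Over all coding genes the corresponding medians were 0.76 and 0.189, so the gap among protocadherins was narrower. It was also not alike in the clusters. With and without a replicate 1 peak, the medians were 0.657 and 0.465 in Pcdhg and 0.682 and 0.651 in Pcdha. In Pcdhb they went the other way, 0.29 with a peak and 0.449 without. Pcdha had the highest median of the 3 clusters, 0.661, and the fewest starts with a peak, so the order of the clusters by CpG was not their order by peaks. Pcdhga11 had the highest ratio, 1.06, and Pcdhga12 the lowest, 0.0694, and both had a replicate 1 score of 59. The Pcdhga12 peak is centred 310 bp after the start, mostly outside the 250 bp counted, so its ratio does not describe the peak itself. The 6 starts with a replicate 2 peak had ratios from 0.586, at Pcdhb17, upward.

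**Figure D4:**
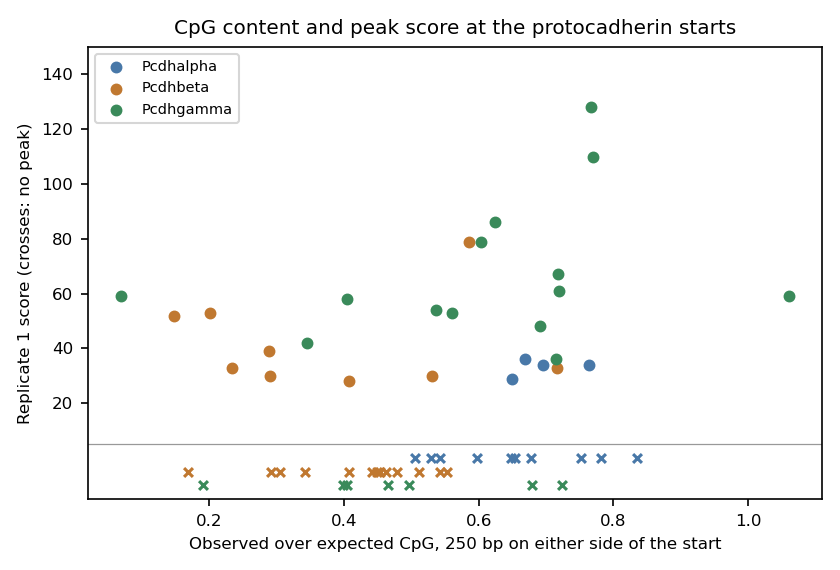
Each point is 1 gene, with the observed over expected CpG ratio on the x axis and its highest replicate 1 score on the y axis, coloured by cluster, and crosses under the line are genes with no replicate 1 peak. The Pcdha crosses and dots lie at ratios of 0.506 and more, and the 2 highest scores, 128 and 110, are at ratios of 0.766 and 0.770.

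Variable exons are similar to each other, so reads from them can be hard to place. The share of 36-base words in the start window that recur elsewhere in the region, on either strand, had a median of 0.458% at starts with a replicate 1 peak and 7.86% at starts without. The median was 10.1% in Pcdha, 0 in Pcdhb and 0.661% in Pcdhg. Within Pcdha it was 3.25% at the 4 starts with a peak and 11.8% at the 10 without, with a maximum of 24.4% at Pcdha7. Within Pcdhb it was 0 in both sets, and within Pcdhg it was 1.02% with a peak and 0.509% without. By these medians, repeated words went with missing peaks in Pcdha and not in Pcdhg. For Pcdhb the medians of 0 cannot show a difference, and the maxima were 16.8% with a peak and 15.8% without. The read length and the authors' handling of reads with several placements are not known, and the part of repeated sequence in the result was not tested.

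Across the whole region there were 69 replicate 1 peaks, 35 at protocadherin starts and 34 elsewhere, and 20 replicate 2 peaks, 7 at starts and 13 elsewhere. Of these, 19 replicate 1 peaks (27.5%) overlapped a replicate 2 peak, against 26.1% of that list, and 18 replicate 2 peaks (90%) overlapped a replicate 1 peak, against 91.9%. Counted over all region peaks, sharing was therefore near that of the lists as a whole. For replicate 1 peaks it was 22.9% at protocadherin starts and 32.4% elsewhere. Counted by start, 6 of the 27 protocadherin starts with a replicate 1 peak (22.2%) had a shared peak. Over all coding genes this held for 11613 of 14506 starts with a replicate 1 peak. Each of the 20 replicate 2 peaks overlapped a hotspot of replicate 1. The density was 6.82 replicate 1 peaks and 1.98 replicate 2 peaks per 100 kb, against 8.67 and 2.47 over the genome.

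Density changed along the region in the order of the clusters, as the map of peaks shows. The 50 kb before Pcdha1 held no peak in either list, and the nearest peak lay 58.0 kb before that start, with a score of 34. The Pcdha cluster had 2.72 and 0 peaks per 100 kb in replicates 1 and 2, the Pcdhb cluster 4.62 and 0.385, and the Pcdhg cluster 16.1 and 5.55. The 50 kb after the last gene had 20 and 10. The Pcdhg cluster and the flank after it were thus denser than the genome in both lists, and the Pcdha and Pcdhb clusters less dense.

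**Figure D5:**
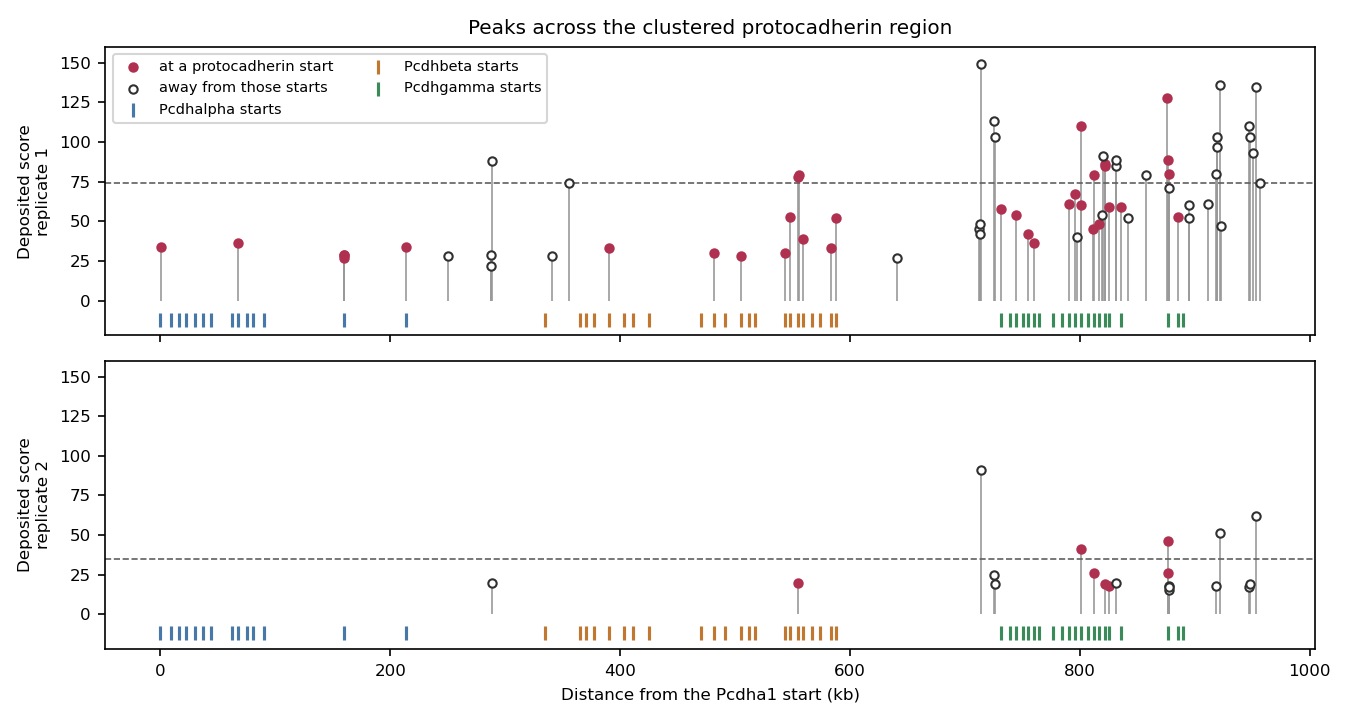
Peaks of replicate 1 (upper panel) and replicate 2 (lower panel) are drawn by distance from the Pcdha1 start in kb and by deposited score, filled where they lie within 1 kb of a protocadherin start, with ticks for the starts of each cluster. Dashed lines are the list medians of 74 and 35, and no replicate 2 peak lies within the Pcdha cluster.

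The highest peaks of the region were not at protocadherin starts. Taf7, a gene for a subunit of the general transcription factor TFIID that sits between Pcdhb and Pcdhg, had 149 in replicate 1 (chr18:37644136-37644285) and 91 in replicate 2. The other coding genes with a start in the region, Slc25a2, Gm42416, Gm37013 and Gm37388, had no peak at their starts. Just before Pcdhga1, the start of the lincRNA 3222401L13Rik had shared pairs of 113 and 25 and of 103 and 19. Within Pcdhg, replicate 1 peaks of 91 at chr18:37749836-37749985, before Pcdhgb7, and of 79 at chr18:37787496-37787645 had no replicate 2 counterpart.

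In the flank after Pcdhg, where the annotation has the formin gene Diaph1, 5 peaks were shared. The peak at chr18:37852216-37852365, which begins 10.3 kb after the last Pcdhg exon, scored 136 and 51, and the one at chr18:37883596-37883745, 41.7 kb after it, scored 135 and 62. Both pairs exceeded the scores at the Pcdhgc3 start in each list. The remaining shared pairs scored 110 and 17, 103 and 19, and 103 and 18. The last pair, chr18:37848936-37849085 in replicate 1 and chr18:37848796-37848945 in replicate 2, overlapped only at its edges. Its replicate 1 peak lay in no replicate 2 hotspot. Enhancers of the Pcdhg genes are known from this side of the cluster, but the peaks were not matched to named enhancers here.

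A single shared peak lay between the Pcdha and Pcdhb clusters. It covered chr18:37218296-37218445, beginning 30.6 kb after the last Pcdha constant exon and ending 46.5 kb before Pcdhb1, and scored 88 in replicate 1 (61.9% of the list lower) and 20 in replicate 2 (14.0% lower). Its hotspots were at the ceiling of 100 in both lists and 260 bp wide in replicate 2. Its replicate 1 score thus exceeded that of every Pcdha start and, among Pcdhb starts, that of every gene. An enhancer of the Pcdha genes bound by CTCF, and by the neuronal gene repressor REST in non-neuronal cells, is known to lie after the Pcdha constant exons, and whether this peak is that enhancer was not tested.

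Matches to the recognition sequences of REST and CTCF were counted in peaks, on both strands. A REST match was the left part TCAGCACC followed on the same strand by the right part GGACAGCG with at most 10 bases between them. This gap was chosen after both parts had been seen in the data. The region held 1 such match, on the reverse strand at chr18:37218322-37218345 with 8 bases between the parts, and it lay in the shared peak between Pcdha and Pcdhb. With exactly 2 bases between the parts, the rule used first, the region held 0 matches. Since the wider rule was set on this peak, its match is a description only. Nearer to Pcdha, a reverse CTCF match at chr18:37217468 lay in 2 overlapping replicate 1 peaks of only 22 and 29, with no replicate 2 peak.

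For CTCF a 12-base consensus was searched without mismatch. The region held 22 matches, of which 19 were inside variable exons. In Pcdha there were 6, all on the forward strand, in Pcdha1, Pcdha4, Pcdha6, Pcdha7, Pcdha8 and Pcdha12, between 537 and 581 bp after the start. In Pcdhb there were 13, all on the reverse strand, between 2271 and 2810 bp after the start, in Pcdhb3, Pcdhb4, Pcdhb5, Pcdhb10, Pcdhb12 to Pcdhb17 and Pcdhb20 to Pcdhb22. Pcdhg had no exact match. Matches with 1 mismatch were searched in peaks only, so their absence from Pcdhg exons is not shown. A replicate 1 peak of 40 at chr18:37727896-37728045, in the Pcdhga8 variable exon, held 1 such match on the reverse strand. That peak is centred 2264 bp after the start. The strand and the distance from the start of the exact matches were therefore alike within Pcdha and within Pcdhb, and different between them. Start windows with a match were 6 of 57, all Pcdha, which is 42.9% of that cluster against 1.7% of all coding starts.

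None of the 19 exact matches in variable exons lay in a peak or a hotspot of either list. Within a cluster these matches sit at like positions of similar exons, so they do not count as 19 independent sites. Over chromosomes 1 to 19 and X, 52.6% of 12728 matches lay in a replicate 1 peak and 39.5% in a replicate 2 peak. The 3 matches outside the exons all lay in replicate 1 peaks, and 1 of them, at chr18:37883728 in the flank after Pcdhg, also in a replicate 2 peak. All 3 were on the reverse strand, like the matches in Pcdhb exons and opposite to those in Pcdha exons. At Pcdha1 the match ends at 36930755 and the weak replicate 1 peak begins at 36930796, so the peak neither covers nor touches the match. Repeated words made up 67.0% of the sequence around the matches of Pcdha7 and Pcdha8 and 0 around the other 4 in Pcdha, and from 0 to 31.3% in Pcdhb.

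Counted from the peaks, 4 of the 69 replicate 1 peaks (5.80%) and 1 of the 20 replicate 2 peaks (5%) held a CTCF match, against 2.85% and 7.43% of all peaks. No peak at a protocadherin start held one. With so few peaks, the region is not set apart from either list.

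Most genes for proteins known to act on the clusters had a peak at their start. Of 21, 19 had one in replicate 1 and 18 in replicate 2, against 66.7% and 54.0% of all coding starts. Their median scores, 146 and 82.5, were close to the 142 and 76 over all coding starts with a peak. Ctcf had 149 and 88, the cohesin genes Rad21 147 and 81 and Smc3 150 and 100, and Nipbl, which loads cohesin, 148 and 71. Smchd1, a silencing factor at the clusters, had 149 and 84, the histone methyltransferase gene Setdb1 144 and 76, and Rest 146 and 57. Dnmt3b, a methyltransferase that acts on Pcdh promoters, had 126 and 40. Stag1 had a replicate 1 peak of 60 alone, and Dnmt1 and Tet1 had none within 1 kb of the start used here.

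Protocadherin genes outside the clusters gave a similar share to the clustered ones in replicate 1. Of 12, 6 had a replicate 1 peak and 2 a replicate 2 peak, against 66.7% and 54.0% of all coding starts. Pcdh17 had 144 and 70 and Pcdh1 had 127 and 57, both above the list medians. Pcdh7 (132), Pcdh19 (94), Pcdh8 (57) and Pcdh10 (52) had a replicate 1 peak alone. The median over those with a peak was 110.5 in replicate 1, against 52 at the clustered starts.

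The counts at the clustered starts depended on how weak a peak was allowed to be. With the replicate 1 list cut to the length of the replicate 2 list, whose lowest score was then 100, with ties at 100 kept in chromosome order until the lengths matched, 2 of the 57 starts (Pcdhgb5 and Pcdhgc3) had a peak, against 52.7% of all coding starts, and both had one in replicate 2 too. At equal length, replicate 1 thus held fewer protocadherin starts than the 6 of replicate 2, while the shares over all coding starts were 52.7% and 54.0%.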

How the data were processed

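DNase-seq of 4 libraries, pooled by the authors into 1 list per biological replicate, was analysed on mm10. The deposited peak lists give a score per 150 bp window, and the deposited hotspot lists a −log10 q value that starts at a q of 0.05. For the caller, its settings and the depth nothing is stated in the labels or file headers, and precision is therefore unknown. Text files deposited with the lists tie the longer to biological replicate 1. Repeated peaks (48 and 5) were kept once. Shared means an overlap of at least 1 bp. Starts, windows of 1 kb, CpG, 36-base words and motifs came from GENCODE M21 and the reference sequence, with Python 3.11.15, pandas 2.3.3 and pysam 0.24.0, and code was tested on simulated data. The genes and lists were chosen with earlier results of these data known. Named were every gene with a replicate 2 peak, the 10 highest and 10 first without a peak, region peaks (5 highest per list and up to 10 shared), regulators, other protocadherins and other coding genes in the region; the remaining genes were added after their values were seen. Alternatives covered score, list length, windows, overlap, flank and motif settings. No test was run, since each replicate is 1 list. Promoter sequences are not printed, and 1 listed regulator is not reported here.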

Additional observations from a re-analysis of the deposited data

How the results depend on the processing

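Of 46 alternatives, 29 left the count within 1.5 times, among them a start window of 500 bp or 2.5 kb and a flank of 10 kb. No paired analysis was possible because the result comes from no test and each replicate is 1 pooled list. Keeping scores above the list median lowered starts with a peak from 27 to 5 (replicate 1), from 6 to 2 (replicate 2) and from 6 to 2 (shared). It lowered region peaks from 69 to 25 and from 20 to 5, and those away from starts from 34 to 16 and from 13 to 3. Lists of equal length gave 2 starts in replicate 1, 2 shared starts, 10 replicate 1 region peaks and 8 away from starts. Hotspots at the ceiling lay at 9 starts in replicate 1 and 3 in replicate 2. Peaks with a CTCF match numbered 8 in replicate 1 and 2 in replicate 2 with 1 mismatch allowed, against 4 and 1 without. The count was 1 in replicate 1 above the median and 0 in replicate 2 within the central 100 bp. Most counts therefore rest on peaks of low score. The depth is unknown, and its part in which peaks were listed was not tested.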
